A study of Rattus norvegicus with 20 samples.

Results

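The transcripts of the whole ventral hippocampus were compared between rats given a synthetic mimic of miR-17-5p and rats given a scrambled small RNA. The members were the 5 homogenate mimic arrays and the 5 homogenate control arrays, taken from the sample titles, which make up 10 of the 20 arrays of the study. The other 10 arrays measured synaptoneurosomes, resealed synaptic endings prepared from the same region. All animals were male Sprague-Dawley rats aged 2 months, and 11 to 13 animals were assigned to each condition. The mimic group received 200 pmol of the mimic in 1.5 µl of nuclease-free water on each side or in all (the labels do not say which), by stereotaxic injection into the ventral hippocampus of both hemispheres under isoflurane. The control group had the same kind of injection with a commercial scrambled RNA, and the labels give ketoprofen treatment around the surgery without naming a group. No array came from uninjected tissue. The interval between injection and tissue collection is not given in the sources used here. Whether an array stands for 1 animal or a pool is not stated in the labels, so each p-value measures no more than the spread among these arrays, which may be technical.

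MicroRNAs guide Argonaute proteins to messenger RNAs that pair with their seed, the short stretch near the 5′ end, and the paired transcripts are repressed or degraded. miR-17-5p comes from the miR-17-92 cluster, is known for promoting cell proliferation, and in the hippocampus has been tied to neurogenesis and to mood-related behaviour. A mimic is a synthetic duplex built to load into Argonaute in the same way, and the transcripts with matching sites are those it would act on directly. The sequences below are shown because the seed decides which transcripts such a mimic can reach, and because endogenous relatives share it. They are the rat mature sequences of RefSeq (build GRCr8), 5′ to 3′, with the seed (bases 2 to 8) in capitals.
rno-miR-17-5p: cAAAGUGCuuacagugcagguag
rno-miR-20a-5p: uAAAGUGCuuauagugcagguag
rno-miR-20b-5p: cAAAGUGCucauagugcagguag
rno-miR-93-5p: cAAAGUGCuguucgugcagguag
rno-miR-106b-5p: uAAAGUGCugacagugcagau
Of the 724 mature entries in the RefSeq table, 6 carried the seed AAAGUGC, under these 5 names. miR-17-5p lies at chr15:98587861-98587883 on the plus strand in the gene Mir17, and the same mature sequence is listed at chrX:137343615-137343637 on the minus strand under the gene Mir106a. miR-20a-5p lies in the same cluster at chr15:98588318-98588340 (plus strand), and miR-20b-5p lies at chrX:137343239-137343261 (minus strand). miR-93-5p (chr12:22156894-22156916) and miR-106b-5p (chr12:22157103-22157123) both lie on the minus strand. Outside the seed, miR-20a-5p and miR-20b-5p each differed from miR-17-5p at 2 positions, and miR-93-5p at 4. miR-106b-5p differed by 3 bases and was 2 bases shorter at its 3′ end. The labels name the mimic by its microRNA and do not give its sequence.

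The array read the Mir17 precursor gene and not the short mature strand, so delivery of the mimic was not measured on it. Mir17 gave log2 values of 4.76, 5.00, 4.95, 4.96 and 4.61 in control arrays 1 to 5, and 4.74, 4.54, 4.78, 4.54 and 4.66 in mimic arrays 1 to 5. The groups overlapped, and the gene was too dim for the test (below the log2 value of 4.97 under which the dimmest 30% of genes were left out). Of its seed relatives, Mir20a (mean 5.36 in control and 5.35 in mimic, SD 0.16 and 0.20) and Mir93 (5.63 and 5.54, SD 0.14 and 0.21) were bright enough to be tested, and their groups overlapped too.

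In whole homogenate 0 of 15465 tested genes (0%) passed limma at an adjusted p below 0.05, and the smallest adjusted p was 0.969. At an unadjusted p below 0.05 there were 692 genes (4.47% of those tested), of which 517 (3.34%) had a higher mean in mimic and 175 (1.13%) a lower one. This split of 74.7% on the higher side depended on the scaling of the arrays. It was 56.1% with quantile scaling and 46.6% with all array medians of tested genes made equal, and the median difference over all tested genes moved from 0.02 to -0.00 and -0.01. In 76 genes (0.491%) every mimic array lay above every control array, and in 24 (0.155%) every mimic array lay below.

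Differences were small for most genes. Of the tested genes, 96.8% lay within 1.2-fold, 33 reached 1.5-fold (16 higher and 17 lower in mimic) and 5 reached 2-fold. The median standard error of a difference was 0.08 on the log2 scale, and the median 95% interval reached 0.17 to either side. All differences given below are mimic minus control on the log2 scale of the deposited RMA values, with the standard error of limma after ±, from 5 against 5 arrays. None of the genes named passed the adjusted test in this fit, so values are given and no gene is called changed. Counts of list members at an unadjusted p below 0.05 are to be read beside 3.34% (higher) and 1.13% (lower) of all tested genes. Leaving out the 4 arrays that stood apart (below) brought 2 genes past the adjusted threshold, Tacr3 and Htr2c, both described further on. That set of arrays was chosen with results known and includes control 5, the control array nearest to the mimic arrays for both genes. Without control 5 alone the limma adjusted p of both was 0.113, so neither passed.

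**Figure D1:**
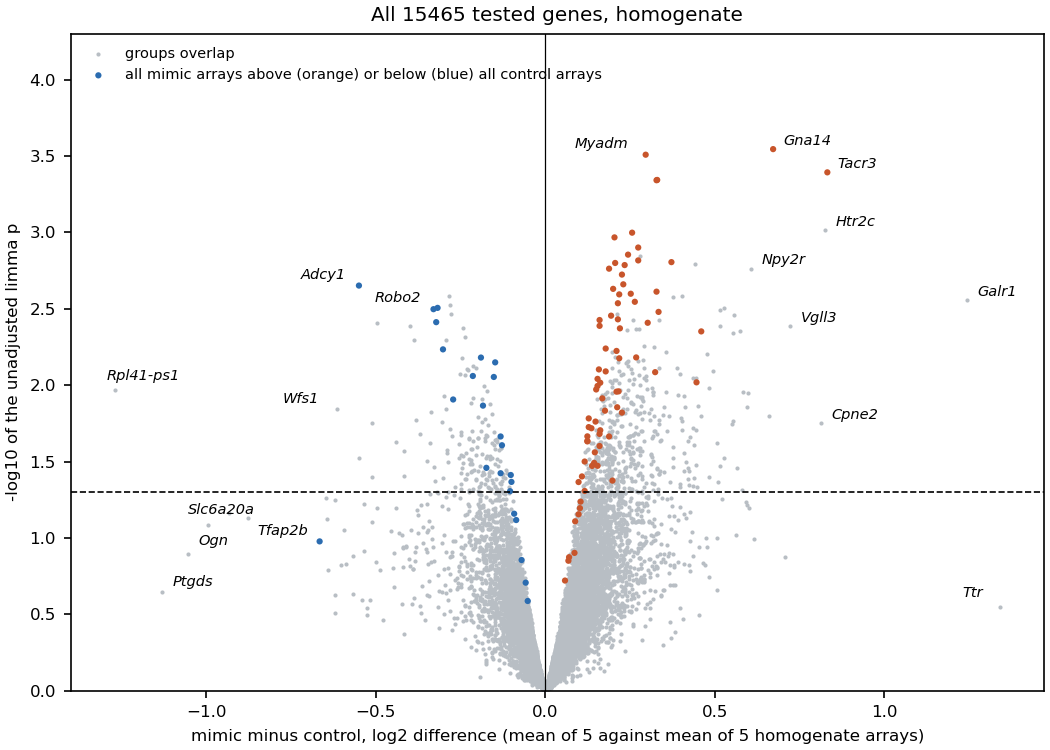
Log2 difference between mimic and control (x axis) against -log10 of the unadjusted limma p (y axis) for the 15465 tested genes in homogenate. The dashed line marks the unadjusted threshold of 0.05. Orange and blue points are the 76 genes with all mimic arrays above and the 24 with all mimic arrays below the control arrays. Labelled genes with a large difference and a low point, such as Ttr, differ in 1 or a few arrays.

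Markers of the labelled tissue were measured on these arrays. All 11 excitatory neuron markers with a probe set passed the filter on dim genes. So did 11 of 13 dentate granule, 7 of 8 CA1 and 15 of 17 CA3 and CA2 markers, while 8 of 16 leukocyte markers did. Markers of other cells also passed, 27 of 31 for neurons from outside the hippocampus and 22 of 23 for mural cells and fibroblasts. The filter kept 15465 of 22093 genes, so these counts do not identify the tissue. Arrays of a group were close to one another (correlations between pairs over all tested genes of 0.9937 to 0.9966 in control and 0.9934 to 0.998 in mimic), but 4 arrays stood apart in markers of particular cells or regions. Control 2 and control 5 were high in markers of mural cells and fibroblasts (list means 7.77 and 7.59 against 6.72 to 6.89 in the other control arrays and 6.88 to 7.02 in mimic). Control 2 was also the highest array for neurons from outside the hippocampus (7.43), with the thalamic and hypothalamic glutamate transporter Slc17a6 at 10.93 against 7.16 to 7.89 elsewhere, and the thalamic transcription factor Tcf7l2 at 10.16 against 7.26 to 7.46. Control 1 was second for this list (7.35). Mimic 4 was the highest array for microglia (8.02 against at most 7.55), ribosomal proteins (10.54 against at most 10.19) and oxidative phosphorylation (9.82 against at most 9.57). Mimic 5 alone was high in choroid plexus markers (7.67 against at most 6.22). In such bulk samples a different share of a cell type and a different RNA amount per cell cannot be told apart.

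**Figure D2:**
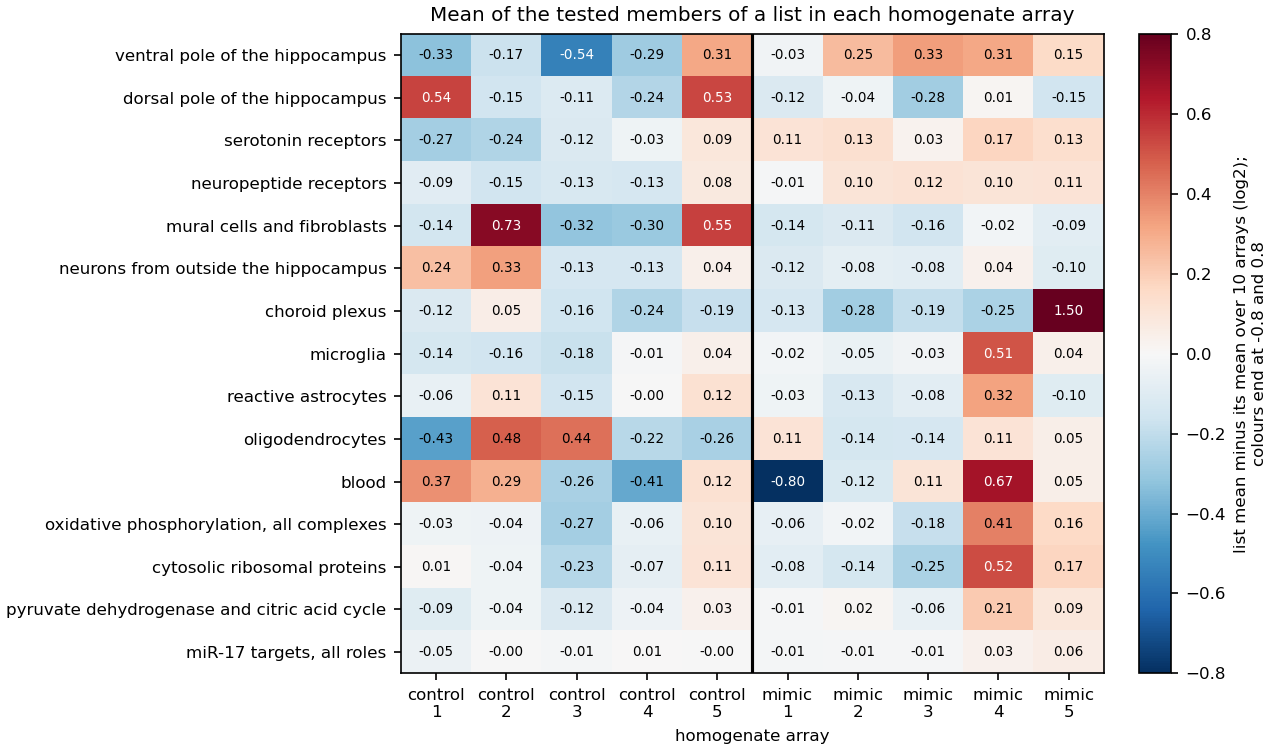
Mean log2 value of the tested members of 15 gene lists in each homogenate array, minus the list's mean over the 10 arrays. Red is higher and blue lower. Control 5 resembles the mimic arrays for the ventral pole list, control 2 and control 5 stand out for mural cells and fibroblasts, mimic 4 for microglia, oxidative phosphorylation and ribosomal proteins, and mimic 5 for choroid plexus.

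Receptors for neuropeptides and serotonin were among the genes with the largest differences. Tacr3, the neurokinin B receptor, had log2 values of 8.56, 7.90, 8.46, 8.41 and 9.09 in control arrays 1 to 5 and 9.30, 9.49, 9.31, 9.21 and 9.27 in mimic arrays 1 to 5. Every mimic array lay above every control array, with control 5 the nearest. The difference was 0.83 ± 0.17, a ratio of 1.78 (limma unadjusted p = 0.000405, adjusted p = 0.969). Without control 2, control 5, mimic 4 and mimic 5 it was 0.89 ± 0.08 (limma adjusted p = 0.045).

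Htr2c, a serotonin receptor that signals through Gq proteins and is a known marker of the ventral CA1 and CA3 fields, stood at 11.41, 11.88, 11.26, 11.59 and 12.40 in control and at 12.47, 12.58, 12.75, 12.25 and 12.62 in mimic. Control 5 fell inside the mimic range and the other control arrays below it. The difference was 0.83 ± 0.19, and without the same 4 arrays 1.18 ± 0.11 (limma adjusted p = 0.045). Galr1, a galanin receptor coupled to Gi proteins, gave 6.11, 6.49, 5.99, 5.84 and 6.99 in control and 6.41, 7.37, 8.27, 7.49 and 8.10 in mimic. Mimic 1 lay within the control range, and the difference of 1.24 ± 0.33 was the second largest on the higher side, after Ttr.

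Npy2r, the neuropeptide Y receptor found on axon endings, gave 8.19, 8.37, 8.49, 8.82 and 9.10 in control and 9.14, 9.26, 9.28, 9.02 and 9.31 in mimic. The groups overlapped only at control 5 and mimic 4, and the difference was 0.61 ± 0.15. The thyrotropin-releasing hormone receptor Trhr (0.41 ± 0.16) and the orexin receptor Hcrtr2 (0.24 ± 0.07) had smaller differences and overlapping groups. Together 5 of 27 tested neuropeptide receptors had an unadjusted p below 0.05 with a higher mean in mimic and 0 with a lower one, beside 3.34% and 1.13% of all tested genes. The median over the 27 was 0.07, against 0.02 over all tested genes, so most receptors of the list differed little.

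Among serotonin receptors, 3 of 11 tested had an unadjusted p below 0.05, all with a higher mean in mimic (3.34% of all tested genes), and the median was 0.18. Htr7, which couples to Gs proteins, gave 6.49, 6.68, 6.45, 6.70 and 6.79 in control and 6.87, 6.89, 6.96, 6.84 and 6.87 in mimic. Its groups did not overlap, and the difference was 0.26 ± 0.07. A second, dimmer probe set of Htr7 gave 0.11. Htr1a, the inhibitory receptor that also acts as an autoreceptor on serotonin neurons, gave 10.38, 10.79, 11.19, 11.13 and 11.05 in control and 11.22, 11.13, 11.20, 11.42 and 11.59 in mimic, a difference of 0.40 ± 0.15 with overlapping groups. Htr5b, expressed in rodents but not in humans as a working receptor, had a difference of 0.34 ± 0.21 that turned to -0.00 without the 4 arrays named above.

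Gna14, a Gq-family subunit that carries signals from such receptors, had the smallest unadjusted limma p of all tested genes (0.000285, adjusted 0.969). It stood at 7.37, 7.45, 7.60, 7.84 and 7.89 in control and at 8.18, 8.37, 7.95, 8.49 and 8.52 in mimic. The groups did not overlap, and the difference was 0.67 ± 0.13. The muscarinic receptor Chrm5 had a difference of 0.58 ± 0.19, with control 5 (7.72) inside the mimic range of 7.57 to 8.01. The adrenergic receptor Adra1b ran the other way, from 5.42 to 5.88 in control and from 5.2 to 5.35 in mimic, with groups that did not overlap (-0.32 ± 0.09). Chrm5 and Adra1b were the only members of the 15 tested dopamine, muscarinic and adrenergic receptors with an unadjusted p below 0.05. Over all tested genes the shares were 3.34% higher and 1.13% lower. Rxrg, a retinoid X receptor, gave 6.11 to 6.60 in control and 6.59 to 6.93 in mimic (0.44 ± 0.11).

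**Figure D3:**
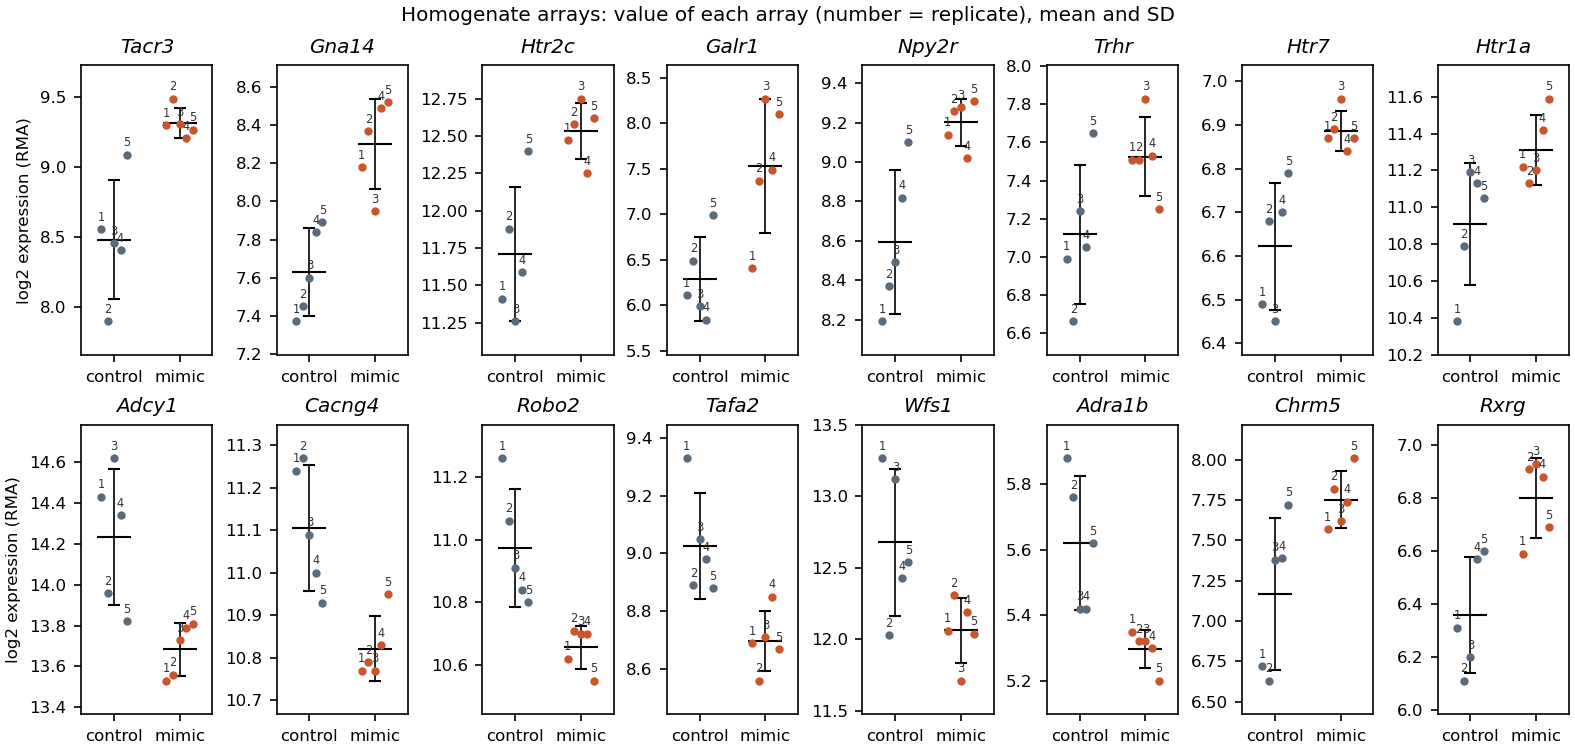
Log2 expression of 16 genes in each homogenate array (control at left and mimic at right, points numbered by replicate), with mean and SD. Control 5 is the control array nearest to the mimic arrays for Tacr3, Htr2c, Galr1 and Npy2r, and Adcy1, Robo2, Tafa2 and Adra1b lie lower in every mimic array than in every control array.

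Several of these receptors are known to differ along the long axis of the hippocampus, so markers of its poles are given beside them. The ventral pole list had 10 tested members, of which 4 had an unadjusted p below 0.05 with a higher mean in mimic and 0 with a lower one, beside 3.34% and 1.13% of all tested genes, and its median difference was 0.41. Its mean per array was 7.72, 7.87, 7.50, 7.76 and 8.35 in control arrays 1 to 5 and 8.02, 8.30, 8.38, 8.35 and 8.20 in mimic arrays 1 to 5. Control 5 was therefore as high as the mimic arrays and the other control arrays lay below all of them. The list holds Htr2c and Galr1, whose values were known when it was chosen. Without them 2 of 8 tested members, Trhr and Grp, had an unadjusted p below 0.05 with a higher mean in mimic, and the median was 0.36. Trhr is itself one of the receptors described above, so the list without Htr2c and Galr1 is still not separate from them. The mean of these 8 ran from 7.22 to 7.54 in control arrays 1 to 4. It stood at 8.02 in control 5, and ran from 7.66 to 7.97 in mimic. Whether the dissected position has a part in the receptor differences was not tested.

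Of the other ventral markers, Grp, a bombesin-like peptide, had a difference of 0.51 ± 0.22, the proteoglycan Dcn 0.47 ± 0.26, the nuclear receptor Nr2f2 0.41 ± 0.21 and the ephrin Efnb2 0.31 ± 0.19. Dcn also belongs to the list of mural cells and fibroblasts, in which control 5 was high. Its control values ran from 7.81 to 9.43, highest in control 5. Nr2f2 stood at 8.84, 8.44, 8.49, 8.93 and 9.65 in control and at 9.28, 9.58, 9.46, 9.20 and 8.90 in mimic, so its highest value was in control 5. Dlk1 (0.07 ± 0.11), the collagen Col5a1 (-0.01 ± 0.04) and calretinin, Calb2 (-0.18 ± 0.38), differed by less than their errors or close to them. Calb2 was highest in control 2 (10.43 against 8.14 to 9.16 elsewhere).

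On the dorsal side, 5 of 8 listed markers were bright enough, with a median of -0.17. Their mean per array was 9.41, 8.71, 8.75, 8.63 and 9.40 in control arrays 1 to 5. In mimic arrays 1 to 5 it was 8.75, 8.83, 8.59, 8.88 and 8.71. Control 1 and control 5 lay above every mimic array, and control arrays 2 to 4 lay within the mimic range. Control 5 was thus high in the mean of both pole lists, on the dorsal side mainly through Coch and Atp2b4 (below). Wfs1, an endoplasmic reticulum protein dense in dorsal CA1 cells, gave 13.27, 12.03, 13.12, 12.43 and 12.54 in control and 12.06, 12.31, 11.71, 12.19 and 12.04 in mimic. The groups overlapped through control 2, and the difference was -0.62 ± 0.21 (limma unadjusted p = 0.0143). Cochlin, Coch, had a difference of -0.50 ± 0.32 that came from control 5 (8.48) and control 2 (7.25), with the other arrays between 6.46 and 6.71. Gabrd, a GABA-A receptor subunit, had -0.17 ± 0.15, the calcium pump Atp2b4 0.13 ± 0.40 and Fndc1 0.01 ± 0.05. Atp2b4 stood at 14.26 in control 1 and 13.65 in control 5, against 11.90 to 13.40 in the other arrays.

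Field markers beside these were mixed. Of 7 tested CA1 markers 2 had an unadjusted p below 0.05 with a higher mean in mimic, the transcription factors Etv1 (0.34 ± 0.14) and Pou3f1 (0.17 ± 0.08), and Wfs1 had one with a lower mean. Over all tested genes these shares were 3.34% and 1.13%. Fibcd1, a receptor for acetylated groups that marks CA1, had 0.56 ± 0.31, with values from 9.61 to 11.31 in control and from 10.60 to 11.66 in mimic. Among CA3 and CA2 markers 1 of 15 had an unadjusted p below 0.05, on the higher side (3.34% of all tested genes), the copine Cpne7 (0.66 ± 0.23). The related Cpne2 stood at 9.30, 9.03, 9.57, 10.40 and 10.83 in control and at 10.45, 10.85, 10.73, 10.53 and 10.64 in mimic, so control 5 lay inside the mimic range and control 4 just below it (0.81 ± 0.29). Vgll3, a cofactor of TEAD transcription factors, had 0.72 ± 0.20, with mimic 5 (7.68) inside the control range of 7.18 to 7.97.

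The genes with the smallest unadjusted p on the lower side included Adcy1, Cacng4, Robo2 and Tafa2. Adcy1, the adenylyl cyclase that calcium and calmodulin activate, stood at 14.43, 13.96, 14.62, 14.34 and 13.82 in control and at 13.53, 13.56, 13.73, 13.79 and 13.81 in mimic. Every mimic array lay below every control array, though control 5 and mimic 5 differed by only 0.01, and the difference was -0.55 ± 0.14 (limma unadjusted p = 0.00223). Cacng4, an auxiliary subunit of AMPA receptors, gave 11.24, 11.27, 11.09, 11.00 and 10.93 in control and 10.77, 10.79, 10.77, 10.83 and 10.95 in mimic. Its groups overlapped only at control 5 and mimic 5, and the difference was -0.28 ± 0.07. Robo2, an axon guidance receptor for Slit proteins, stood at 11.26, 11.06, 10.91, 10.84 and 10.80 in control and at 10.62, 10.71, 10.70, 10.70 and 10.55 in mimic. Its groups did not overlap (-0.32 ± 0.09), and neither did those of the secreted neuronal protein Tafa2 (8.88 to 9.33 in control, 8.56 to 8.85 in mimic, -0.33 ± 0.09).

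Presynaptic vesicle genes had 3 of 26 tested members with an unadjusted p below 0.05 and a lower mean in mimic, and 0 with a higher one, beside 1.13% and 3.34% of all tested genes. They were Stxbp6, which binds SNARE proteins (-0.21 ± 0.07, groups not overlapping), the calcium sensor Syt7 (-0.16 ± 0.06) and the vesicle phosphoprotein Syn3 (-0.23 ± 0.10). The list's median was 0.01 and took a negative sign with either other scaling (-0.03 and -0.02). A second, much dimmer probe set of Stxbp6 gave 0.08.

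Among the remaining genes on the lower side, the interferon-induced GTPase Mx2 ran from 8.40 to 9.02 in control and from 8.12 to 8.44 in mimic (-0.40 ± 0.11). Mx2 was the only one of 19 tested interferon response genes with an unadjusted p below 0.05, beside 1.13% of all tested genes on this side. The interleukin 12 receptor chain Il12rb2 ran from 5.11 to 5.22 in control and from 4.95 to 5.05 in mimic (-0.15 ± 0.05). Defb18, a defensin gene (-0.28 ± 0.08), and Btg1c (-0.24 ± 0.07) had overlapping groups. Several microRNA genes had small p-values on this side: Mir337 (-0.28 ± 0.08), Mir466c (-0.50 ± 0.14), Mir466d (-0.39 ± 0.11) and Mir30b (-0.24 ± 0.07). Mir466c stood at 8.12, 8.63, 8.78, 8.43 and 8.07 in control and at 7.73, 7.99, 8.11, 7.97 and 7.74 in mimic, with overlapping groups. Mir466 genes lie in repeated copies, and another Mir466d probe set gave 0.31, so these values are uncertain.

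Genes of mitochondrial energy metabolism had slightly higher group means in mimic. In the pyruvate dehydrogenase and citric acid cycle list 18 of 20 tested genes had a higher mean in mimic, beside 59.4% of all tested genes, and 4 had an unadjusted p below 0.05, all on the higher side (3.34% of all tested genes). The median was 0.10. The list's mean per array was 10.43, 10.49, 10.40, 10.48 and 10.55 in control arrays 1 to 5. In mimic arrays 1 to 5 it was 10.51, 10.54, 10.46, 10.73 and 10.61. Mimic arrays 1 to 3 therefore lay inside the control range, and mimic 4 was highest. Dlat, the acetyltransferase of the pyruvate dehydrogenase complex, stood at 10.69, 10.89, 10.73, 10.74 and 10.86 in control and at 10.92, 11.08, 11.11, 10.99 and 11.18 in mimic. Its groups did not overlap, and the difference was 0.27 ± 0.06. Citrate synthase, Cs, had 0.20 ± 0.06, the kinase Pdk3 that restrains pyruvate dehydrogenase 0.13 ± 0.05, and the isocitrate dehydrogenase subunit Idh3g 0.14 ± 0.06. Their groups overlapped.

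For oxidative phosphorylation, 33 of 35 tested complex I genes and 23 of 23 of complexes II to IV had a higher mean in mimic. Their medians were 0.11 and 0.09, and the ATP synthase list had a median of 0.13 (10 of 12 higher). Over all tested genes 59.4% had a higher mean in mimic. Only Ndufc1 (0.19 ± 0.07) and Ndufa5 (0.15 ± 0.07) of complex I had an unadjusted p below 0.05, beside 3.34% of all tested genes on the higher side. The 70 genes together averaged 9.38, 9.38, 9.15, 9.36 and 9.52 in control and 9.35, 9.40, 9.23, 9.82 and 9.57 in mimic. Mimic 4 stood highest and the other mimic arrays fell inside or next to the control range. Without control 2, control 5, mimic 4 and mimic 5 the median over the 70 was 0.03, while that of the pyruvate dehydrogenase and citric acid cycle list was 0.07. Sdhd of complex II (0.21 ± 0.11), Cox6a1 of complex IV (0.48 ± 0.28), and Atp5mc1 (0.13 ± 0.08) and Atp5f1e (0.38 ± 0.28) of ATP synthase had their highest value in mimic 4, for Cox6a1 12.04 and for Atp5f1e 10.05.

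Cytosolic ribosomal proteins moved with the same array. Their list mean was 10.54 in mimic 4 and 10.19 in mimic 5, against 9.77 to 9.94 in the other mimic arrays and 9.79 to 10.12 in control. Of 49 tested genes 0 had an unadjusted p below 0.05, and the median of 0.08 became -0.06 without the same 4 arrays. Rpl34 ranged from 11.56 to 13.34 in mimic with mimic 4 at the top (0.47 ± 0.30), Rps19 had 0.21 ± 0.11 and Rps14 -0.17 ± 0.11. Ribosomal protein genes have many processed pseudogenes, so their probe sets may read more than 1 locus.

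The smallest p-values on the higher side included genes outside these groups. Myadm, a membrane protein of lipid rafts, ran from 9.99 to 10.20 in control and from 10.34 to 10.42 in mimic (0.30 ± 0.06, limma unadjusted p = 0.00031). Tril, an accessory protein of toll-like receptors, ran from 10.49 to 10.66 and from 10.70 to 11.02 (0.33 ± 0.07), and the neuronal kinase Camk1g from 8.93 to 9.13 and from 9.26 to 9.49 (0.33 ± 0.07). Eif2s1, the translation initiation factor that stress kinases phosphorylate, was tight in control (9.59 to 9.66) and ran from 9.78 to 10.05 in mimic (0.26 ± 0.06). In all 4 genes every mimic array lay above every control array.

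The same held for Mospd2, a tether at endoplasmic reticulum contact sites (0.20 ± 0.05), Hsd17b7, an enzyme of cholesterol synthesis (0.24 ± 0.06), Cd86, a costimulatory molecule of antigen-presenting cells (0.27 ± 0.07), Capns1, the calpain small subunit (0.46 ± 0.13), and Itga4, an integrin chain (0.45 ± 0.14). It also held for Nppc, the C-type natriuretic peptide (0.33 ± 0.09), Otulinl (0.33 ± 0.09) and Pcdhgc5 (0.37 ± 0.09), a protocadherin that shares its last exons with the other gamma protocadherins, so its probe set may not separate them. Slitrk2, a synaptic adhesion protein, overlapped through control 5 and mimic 1 (0.28 ± 0.07). The second probe set of Capns1 gave 0.36.

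Described targets of the miR-17 family are the transcripts a mimic could act on directly, and 66 of 72 listed genes were tested. Of the rest, E2f2 and Smad6 were too dim and the others were not analysed here. Of the 66, 0 passed the adjusted test, 3 had an unadjusted p below 0.05 with a higher mean in mimic and 0 with a lower one, beside 3.34% and 1.13% of all tested genes. The median was 0.03, against 0.02 over all tested genes, and it was -0.02 with quantile scaling and -0.01 with median scaling. The 95% interval excluded a 2-fold lower value in mimic for 66 of the 66 and a 1.5-fold lower value for 65, the exception being Txnip. A 1.3-fold lower value was excluded for 63, the exceptions being Txnip, Tp53inp1 and Limk1. Over all 15465 tested genes the same limits were excluded for 15418 (2-fold), 15208 (1.5-fold) and 14579 (1.3-fold). Most tested genes shared this trait, so it does not set the targets apart. The intervals assume that arrays are independent samples.

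Cell cycle targets had a median of 0.00 over 12 genes. Ccnd1, the cyclin D1 gene, stood at 6.92, 7.02, 6.97, 6.94 and 7.09 in control and at 6.65, 6.74, 6.74, 7.05 and 6.97 in mimic. Mimic arrays 1 to 3 lay below all control arrays and the others within their range, with a difference of -0.16 ± 0.08 (limma unadjusted p = 0.0722). Its relative Ccnd2 had 0.29 ± 0.15 and the inhibitor Cdkn1a, a much studied target, -0.05 ± 0.08. Nabp1, a single-strand DNA binding protein, had 0.22 ± 0.07, with control 1 and control 5 at the lower end of the mimic range.

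Autophagy and survival targets had a median of 0.06 over 14 genes. Atg7, an enzyme of autophagosome formation, had 0.18 ± 0.08, the autophagy receptor Sqstm1 0.08 ± 0.10, and the stress-induced Tp53inp1 -0.13 ± 0.20. Signalling targets had a median of 0.03 over 23 genes and 0 with an unadjusted p below 0.05. Their members with the largest statistics were the integrin Itgb8 (-0.13 ± 0.07), the kinase Sgk1 (0.17 ± 0.09) and the lipid exporter Abca1 (0.18 ± 0.11). The angiogenic factor Vegfa had 0.04 ± 0.08 and the actin-regulating kinase Limk1 -0.16 ± 0.13, the latter with its highest value in control 2.

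Transcription and chromatin targets had a median of 0.02 over 17 genes. Nr4a3, a nuclear receptor gene induced by neuronal activity, stood at 9.08, 9.0, 9.50, 9.42 and 9.31 in control and at 9.48, 9.66, 9.75, 9.60 and 9.70 in mimic. The groups overlapped only through control 3 and mimic 1, and the difference was 0.38 ± 0.10 (limma unadjusted p = 0.00264). Runx1 (-0.11 ± 0.06) and the histone methyltransferase Ezh1 (0.19 ± 0.11) had overlapping groups. Txnip, an inhibitor of thioredoxin, had -0.24 ± 0.21, with control 2 at 10.68 and control 5 at 10.26 against 9.37 to 9.92 in the other arrays. The microRNA machinery, which a mimic needs, had 0 of 17 genes with an unadjusted p below 0.05, with Drosha at -0.11 ± 0.06 and the exporter Xpo5 at 0.14 ± 0.07.

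**Figure D4:**
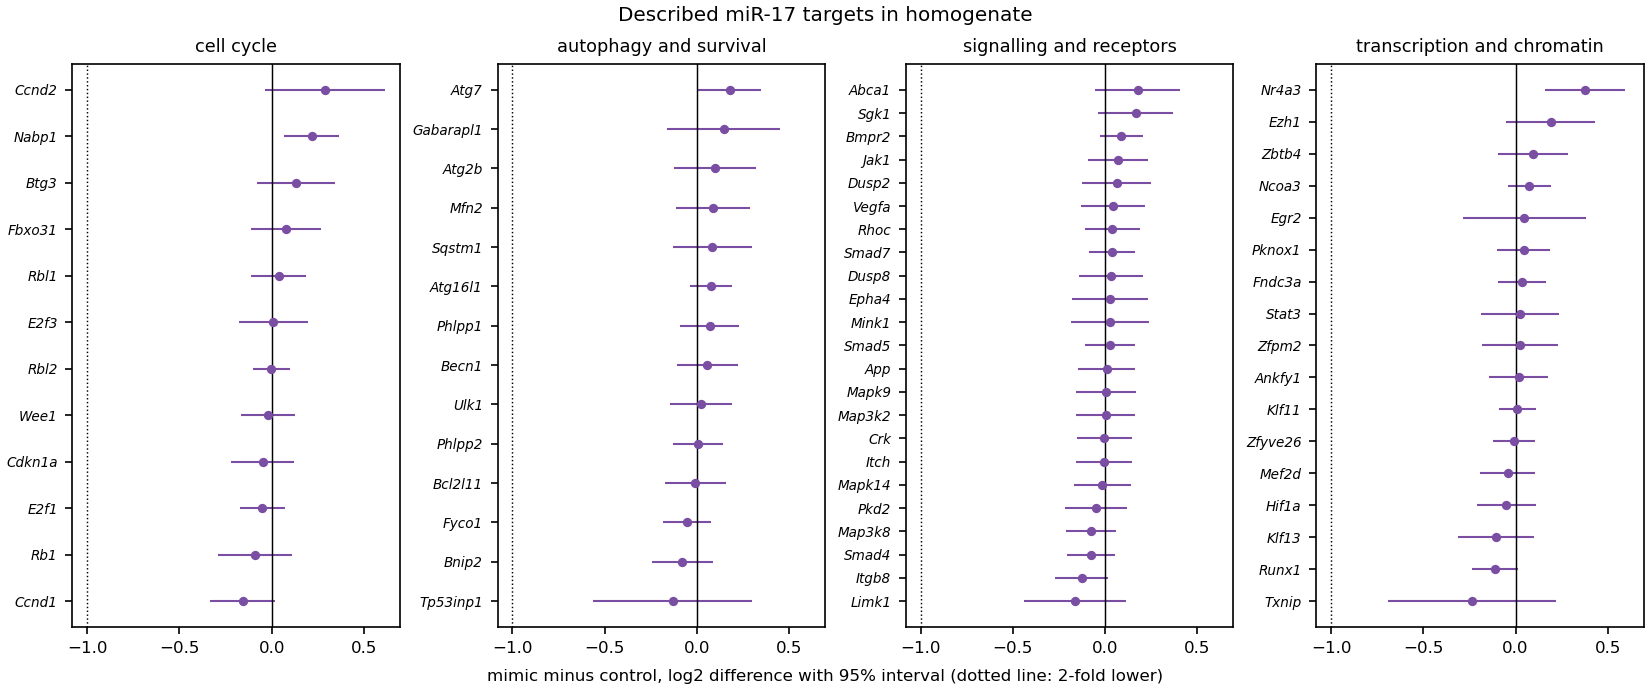
Log2 difference between mimic and control with its 95% interval for the 66 tested targets of the miR-17 family in homogenate, in 4 panels by role. The dotted line marks a 2-fold lower value in mimic, which no interval reaches.

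Of the 5 genes that reached 2-fold, Galr1 lay above every control array in 4 of 5 mimic arrays, and the others, Ttr, Ptgds, Ogn and Rpl41-ps1, rested on 1 to 3 arrays that stood away from the rest. Ttr, the transthyretin that choroid plexus secretes, gave 6.58, 6.27, 5.94, 5.89 and 5.83 in control and 6.27, 5.91, 5.97, 5.98 and 13.08 in mimic. Only mimic 5 was high, and the difference of 1.34 ± 1.19 became -0.07 without it. Ptgds, the prostaglandin D synthase of meninges and oligodendrocytes, gave 10.46, 13.69, 9.58, 9.59 and 14.33 in control and 10.27, 10.86, 9.66, 10.83 and 10.38 in mimic. Control 2 and control 5 were high, as they were for the connective tissue proteoglycan Ogn (9.84 and 10.55 against 6.72 to 7.80), the meningeal transporter Slc6a20a (10.24 and 9.54 against 7.20 to 7.77) and the retinoic acid enzyme Aldh1a2 (7.27 and 7.20 against 5.67 to 6.08). The differences were -1.13 ± 0.88 for Ptgds, -1.05 ± 0.64 for Ogn, -0.99 ± 0.52 for Slc6a20a and -0.62 ± 0.29 for Aldh1a2. The meningeal sulphate transporter Slc13a4 was high in control 2, control 5 and mimic 5 (8.02 to 8.91 against at most 7.23).

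Control 2 alone was high for Tfap2b (7.19 against 4.71 to 5.15) and for Unc13c, a release factor strong in cerebellar granule cells (9.01 against 6.82 to 7.51), and control 1 and control 2 were high for the potassium channel Kcnh5 (10.00 and 9.19 against 7.22 to 7.83) and for Foxp2 (6.39 and 6.65 against 5.30 to 5.55). The differences of these 4 genes were -0.67 ± 0.38, -0.65 ± 0.30, -0.93 ± 0.46 and -0.41 ± 0.24. The ribosomal pseudogene Rpl41-ps1 was near 8 in control 2, control 4 and control 5 (8.12, 8.59 and 8.57) and at 6.26 to 6.56 in the other 7 arrays, and Klhl34 was low in mimic 2 (7.34) and mimic 4 (8.17) against at least 9.26 elsewhere. Car3, a carbonic anhydrase, was near 7 in control 1 and mimic 1, 2 and 4 (7.17 to 7.38) and at 5.52 to 5.71 in the other 6. The differences were -1.27 ± 0.42 for Rpl41-ps1, -0.88 ± 0.45 for Klhl34 and 0.71 ± 0.44 for Car3.

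Among glial and immune genes, 16 of 19 tested microglial markers had a higher mean in mimic (59.4% of all tested genes) and 2 had an unadjusted p below 0.05 on that side (3.34%), with a median of 0.22 that was 0.09 without the 4 arrays that stood apart. These were the lysophospholipid receptor Gpr34 (0.25 ± 0.09) and the lysosomal protein Laptm5 (0.33 ± 0.15). Laptm5 stood at 8.75, 8.91, 8.47, 8.85 and 8.91 in control and at 9.14, 8.96, 8.74, 9.65 and 9.06 in mimic, with mimic 4 highest. Csf1r (0.22 ± 0.11), Tyrobp (0.16 ± 0.09) and Cd68 (0.30 ± 0.15), which microglia need for survival, signalling and lysosomal function, were also highest in mimic 4.

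The complement component C3 gave 8.63, 8.46, 8.33, 7.89 and 8.69 in control and 9.22, 8.64, 8.76, 9.17 and 8.98 in mimic. Only mimic 2 fell inside the control range, and the difference was 0.55 ± 0.16. In the innate inflammation list 3 of 15 tested genes had an unadjusted p below 0.05 with a higher mean in mimic (3.34% of all tested genes), C3, the NF-kappa-B inhibitor Nfkbia (0.16 ± 0.06) and the toll-like receptor adaptor Myd88 (0.14 ± 0.06). The list's 1 gene on the lower side was Il12rb2, and Il6, Tnf, Ccl3, Ccl4, Cxcl1, Cxcl2 and Il1a were too dim to test. The macrophage gene Mpeg1 had 0.62 ± 0.35, with control 2 and control 3 low (8.03 and 7.87). Of leukocyte genes, Ccr2 had -0.26 ± 0.10 and Cd4 0.32 ± 0.14.

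Astrocyte markers had a median of 0.05 and 2 of 16 with an unadjusted p below 0.05, both with a higher mean in mimic (3.34% of all tested genes). Sox9, a transcription factor of astrocytes, stood at 11.31 to 11.34 in control arrays 1 to 4, at 11.53 in control 5 and at 11.54 to 11.67 in mimic, a difference of 0.21 ± 0.06 with groups that did not overlap. The glutamate transporter Slc1a3 had 0.26 ± 0.10. Bcan, a proteoglycan of oligodendrocyte precursors, had 0.15 ± 0.06, and oligodendrocyte markers had a median of -0.02 with 0 of 13 at an unadjusted p below 0.05. Mural cells and fibroblasts had a median of -0.19 that was 0.08 without the 4 arrays that stood apart.

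Synaptic and activity genes differed little as lists. Glutamatergic synapse genes had a median of 0.03 and 2 of 33 with an unadjusted p below 0.05, the adhesion proteins Nlgn3 (0.20 ± 0.07) and Lrrtm2 (0.22 ± 0.09). GABAergic synapse genes had a median of 0.04 (-0.01 with quantile scaling) and 2 of 16, the GABA-A subunits Gabrb1 (0.33 ± 0.14) and Gabra5 (0.21 ± 0.09). Interneuron markers had a median of 0.10 and 2 of 16, the transcription factor Lhx6 (0.24 ± 0.08) and the receptor kinase Kit (0.41 ± 0.17). All of these had the higher mean in mimic, as did 3.34% of all tested genes at that level.

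Immediate early genes had a median of 0.02 (-0.01 with median scaling) and 2 of 20 with an unadjusted p below 0.05, Nr4a3 and Fosl2 (0.30 ± 0.13). Both had the higher mean in mimic, as did 3.34% of all tested genes at that level. Stress and glucocorticoid genes had a median of 0.09 and 0 of 15 past that level, with the glucocorticoid-induced Zbtb16 at 0.27 ± 0.14. In the neurotrophin and neuregulin list the ligand Nrg2 had -0.11 ± 0.06.

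**Figure D5:**
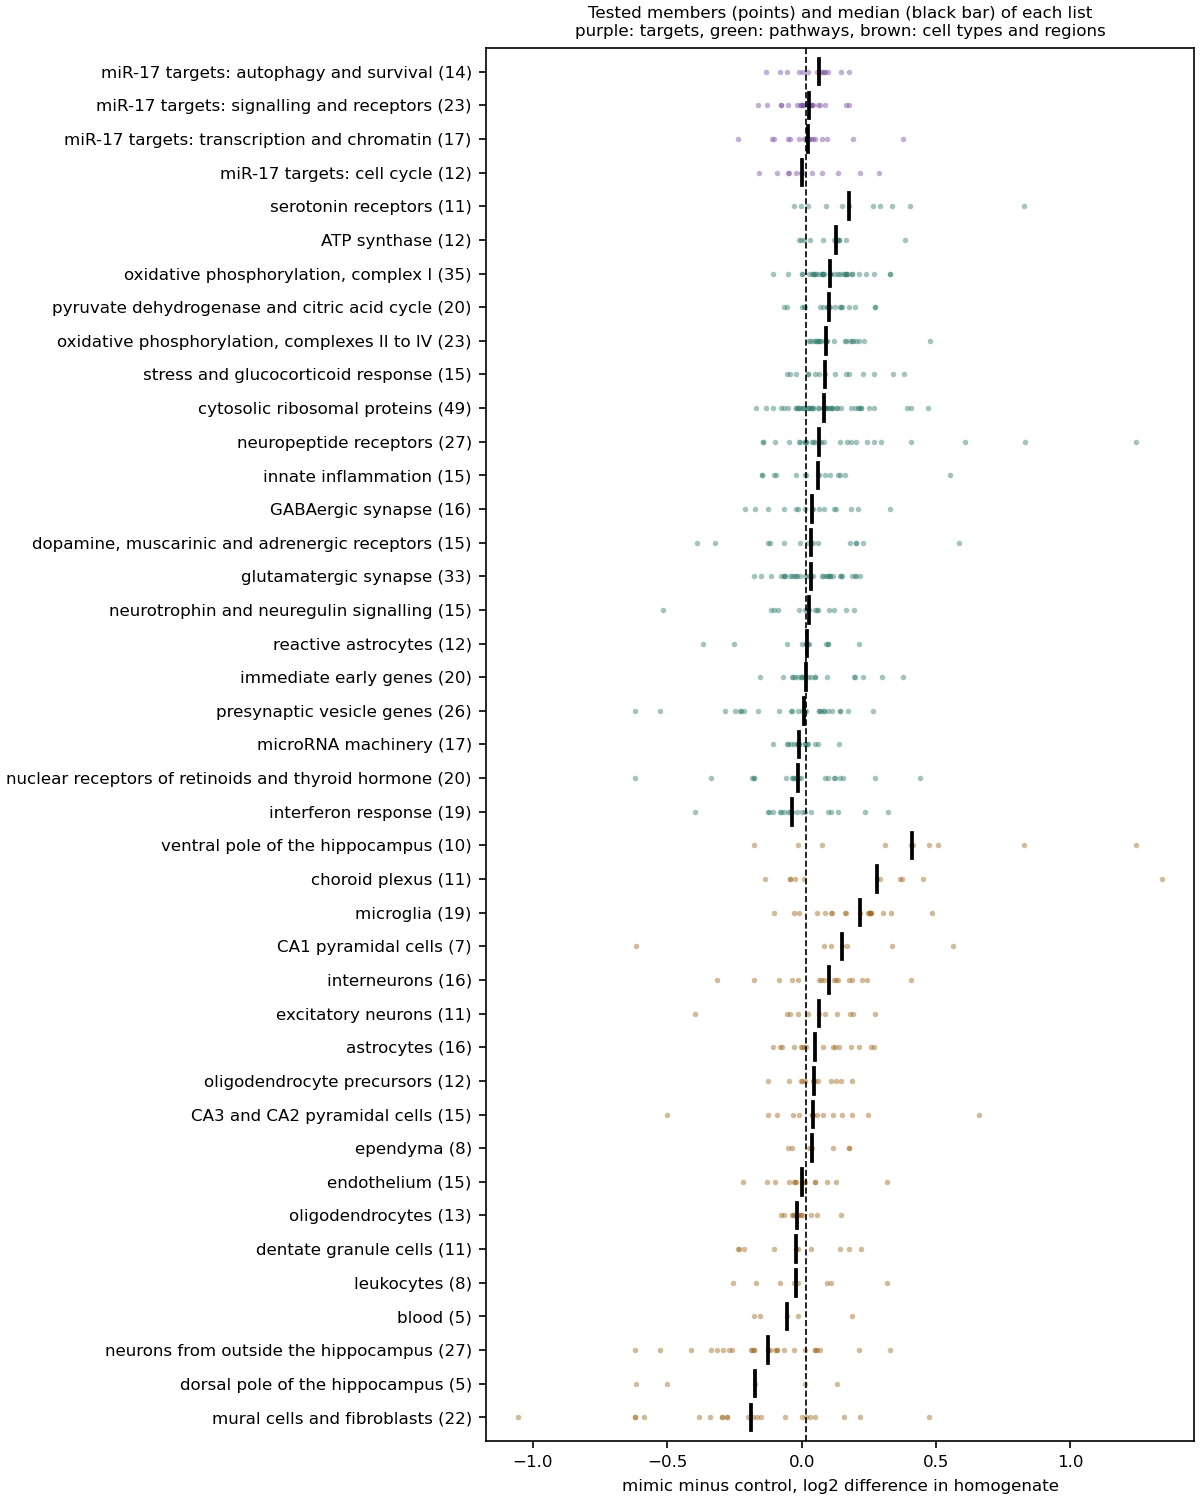
Log2 difference between mimic and control of each tested member (points) and the median (black bar) of each gene list in homogenate, with the number of tested members in brackets. The dashed line is the median of all tested genes (0.02). The ventral pole list has the highest median (0.41) and mural cells with fibroblasts the lowest (-0.19).

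Synaptoneurosome arrays were used only to set values side by side. Each homogenate array deviated from its group most like the synaptoneurosome array of the same number and treatment (correlation across genes of 0.24 to 0.48 in control and 0.10 to 0.35 in mimic), so the fractions are not independent samples. In synaptoneurosomes alone 0 genes passed limma (smallest adjusted p 0.996, 274 genes at an unadjusted p below 0.05). The limma test of the difference between fractions had 0 genes passing (smallest adjusted p 0.998, 243 at an unadjusted p below 0.05). It compared 4 group means over the 20 arrays and did not pair the fractions. Its p-values treat the arrays as independent, which the fractions are not. Galr1 had 1.11 ± 0.60 in synaptoneurosomes, Htr2c 0.62 ± 0.32, Tacr3 0.35 ± 0.53, Npy2r 0.24 ± 0.59 and Gna14 0.23 ± 0.24. Adcy1 had -0.26 ± 0.32, Robo2 -0.38 ± 0.26 and Tafa2 -0.50 ± 0.18. Dlat had 0.06 ± 0.07, Myadm -0.27 ± 0.55, Capns1 -0.14 ± 0.22 and Eif2s1 -0.19 ± 0.18. Of all genes named above, the limma unadjusted p of the difference between fractions was below 0.05 for Dlat (0.0334), Eif2s1 (0.0349), Capns1 (0.0367), Mir30b (0.0164), Il12rb2 (0.0192), Btg1c (0.0251) and Mir466c (0.0473). The adjusted p was 0.998 for each.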

How the data were processed

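RNA (100 ng per array) from whole homogenate was measured on Affymetrix arrays. The authors deposited log2 expression values. Per the submitters' processing notes these came from RMA and Transcriptome Analysis Console, with releases that were not given in the sources used here. As a method RMA equalises array distributions and compresses differences of dim transcripts. There were 68842 probe sets and no missing value, and homogenate array medians ran from 5.11 to 5.21. The platform annotation, which can be old, gave 1 symbol for 23446 probe sets, several for 505 and none here for 44891; 22077 were found in a current gene table by gene number (1 symbol updated). The brightest single-symbol probe set over the 20 arrays stood for each of 22093 genes, and the dimmest 30% (below 4.97) were left out, leaving 15465.

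Values were used as deposited. limma 3.58.1 in R 4.3.3 (2-sided, constant prior with 3.38 prior degrees of freedom, Benjamini-Hochberg over all tested genes) compared the 5 mimic with the 5 control arrays, without the synaptoneurosome arrays, whose spread was larger. The script was tested on simulated data. An exact permutation test of 5 against 5 cannot go below p = 0.00794. Tables and plots used Python 3.11.15, pandas 2.3.3, numpy 2.4.6, scipy 1.17.1 and matplotlib 3.10.9. No array duplicated another (smallest mean absolute difference within a group 0.11). The number of arrays limits the precision.

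The members, the 41 gene lists (4 of described targets, 19 of pathways and receptors, 18 of cell types and regions), the tests and the alternatives were chosen with earlier results of these data known. Genes to name were drawn from the 12 with the smallest p and the 6 with the largest difference in each direction, the 8 with the largest difference among non-overlapping genes in each direction, the 4 members of each list with the largest statistic, and Mir17, Htr2c, Galr1, Ttr, Dlat and Rxrg; not all of them are given. A further 26 of the 130 genes with values were chosen after their values were seen: Htr5b, Nr2f2, Dcn, Efnb2, Dlk1, Calb2, Col5a1, Fndc1, Rps14, Txnip, Sqstm1, Cdkn1a, Vegfa, Tp53inp1, Limk1, Mir20a, Mir93, Unc13c, Slc17a6, Car3, Csf1r, Tyrobp, Mpeg1, Tcf7l2, Foxp2 and Slc13a4. A count of seed matches in transcripts needs transcript sequences and was not made. Alternatives covered the arrays in the fit, the prior, array weights, the filter, the scaling, the probe set and left-out arrays.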

Additional observations from a re-analysis of the deposited data

Results flagged for a closer look

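Within a group of 5 arrays, the gap between the highest or lowest array and its nearest neighbour was set against the whole range (Dixon's test, critical value 0.71). Of 346 groups of gene values and list means, 23 had an array beyond this value, and chance gives about 1 in 20. Many of these genes were named because single arrays stood out, so the count is a description and is not to be read against that rate. Control 2 and mimic 4 accounted for 7 each, mimic 5 for 3, control 5 and mimic 1 for 2 each, and control 1 and control 4 for 1 each. Causes were not tested.

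In control 2, Tcf7l2 was 10.16 (nearest 7.42), Slc17a6 10.93 (nearest 7.89), Tfap2b 7.19 (nearest 5.15), Unc13c 9.01 (nearest 7.51) and Klhl34, the lowest control, 9.26 (nearest 9.94). The same array had the lowest control means of excitatory neuron markers, 11.90 (nearest 12.21), and glutamatergic synapse genes, 12.20 (nearest 12.33). In control 1, Car3 was 7.17 (nearest 5.71), and in control 4, Fndc1 was 5.21 (nearest 5.34). In control 5, Sox9 was 11.53 (nearest 11.34) and the mean of neuropeptide receptors 7.11 (nearest 6.94).

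In mimic 4, Grp was 6.91 (nearest 6.26), Rps19 11.67 (nearest 11.24) and Cd68 6.61 (nearest 5.92). Within the mimic group its list means were also the highest for microglia, 8.02 (nearest 7.55), and reactive astrocytes, 7.13 (nearest 6.78). The same held for neurons from outside the hippocampus, 7.14 (nearest 7.03), and nuclear receptors of retinoids and thyroid hormone, 7.97 (nearest 7.91). Control 2 was higher than mimic 4 for neurons from outside the hippocampus (7.43) and for these nuclear receptors (8.06). In mimic 5, Ttr was 13.08 (nearest 6.27), Slc13a4 8.02 (nearest 6.95) and the choroid plexus mean 7.67 (nearest 6.03). Mimic 1 had the lowest mimic means of glutamatergic synapse genes, 12.26 (nearest 12.37), and neuropeptide receptors, 7.02 (nearest 7.13).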

How the results depend on the processing

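No gene passed the adjusted test in the fit of 10 homogenate arrays or under any alternative except one: without control 2, control 5, mimic 4 and mimic 5 there were 2 (Tacr3 and Htr2c). Genes at an unadjusted p below 0.05 numbered 692, against 268 with all 20 arrays, 1046 with the replicate block, 2945 of 68842 with every probe set, and 563 to 987 with 1 array left out. The highest of these was without control 5 (smallest adjusted p 0.113). With a further limit on size 212 reached 1.2-fold and 12 reached 1.5-fold. Genes whose groups did not overlap numbered 100, against 153 with no filter on dim genes, 441 with every probe set, 174 to 308 with 1 array left out and 1527 without the 4 arrays, where fewer arrays make it easier not to overlap. The deviations of same-numbered control and mimic arrays correlated at 0.02, 0.05, 0.28, 0.03 and 0.41. Of the control arrays 2 of 5 matched their own number best. These values do not settle whether the replicate number pairs control with mimic, and the main fit left it out. With the replicate block the smallest limma adjusted p was 0.726. Over 22 alternatives 114 of the 130 genes with values kept their sign. Without the 4 arrays the difference turned for Htr5b (-0.0033), Calb2 (0.44), Col5a1 (0.0033), Coch (0.0033), Atp5f1e (-0.0033), Txnip (0.057), Ttr (-0.087), Ptgds (0.39), Ogn (0.14), Slc6a20a (0.0067), Slc17a6 (0.03) and Tcf7l2 (0.013). With quantile scaling it turned for Col5a1 (0.0056) and Mir20a (0.0025), and with median scaling for Fndc1 (-0.018). With 1 array left out, 9 genes had both signs or 0 at the edge: Calb2 (-0.35 to 0.22), Col5a1 (-0.022 to 0), Atp2b4 (-0.11 to 0.48), Fndc1 (-0.016 to 0.038), Tp53inp1 (-0.27 to 0.018), Mir20a (-0.068 to 0.06), Ttr (-0.0695 to 1.72), Slc17a6 (-0.89 to 0.056) and Tcf7l2 (-0.68 to 0.035). The cause was not tested, beyond the left-out arrays themselves. Values of dim genes near the filter are limited by the background of the array.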
